A study of Homo sapiens with 6 samples.

Results

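The 10 genes described here encode secreted Wnt ligands, secreted Wnt antagonists of the Dickkopf family and 2 read-outs of the canonical Wnt pathway. They were taken by symbol from the deposited table of expected counts: WNT5A, WNT5B, WNT7A, WNT7B, WNT9A, WNT10A, DKK1, DKK3, AXIN2 and LEF1, 10 of 57736 genes. All 10 symbols were found, and 8 of the genes passed the filter on low counts, while AXIN2 and LEF1 did not. The libraries came from AALE cells, a human bronchial basal epithelial line immortalised with SV40 genes and telomerase (hTERT), which both groups carry. The cells held either a lentiviral vector that overexpresses NRG1, the ERBB ligand neuregulin, in 3 libraries, or a lentiviral control vector in 3 libraries. RNA came from stable pools of transduced cells in a small airway growth medium, so each group was a mixed pool of transduced cells and not a clone. No label states that libraries were separate cultures, so every p-value reflects library-to-library spread, part of which may be technical. The sources used here name no promoter for the vector.

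Wnt proteins are lipid-modified secreted factors that bind Frizzled receptors. Ligands such as WNT7A, WNT7B, WNT9A and WNT10A are mostly described in canonical signalling, in which beta-catenin is stabilised and acts with TCF and LEF factors on target genes such as AXIN2. WNT5A and WNT5B are mostly described in signalling that does not use beta-catenin, through receptors such as ROR2, and WNT5A can also hold canonical signalling back. DKK1 blocks the canonical co-receptors LRP5 and LRP6. In the airway, Wnt signals are known to act on basal cell renewal and on the repair of the epithelium.

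Total expected counts ran from 8612234 to 10609067 in the NRG1 libraries and from 9549284 to 13207620 in the control libraries. NRG1 itself was at 3781 to 6647 CPM, the share of a library's counts after TMM scaling for library composition, in the NRG1 libraries, against 7.87 to 12.3 CPM in the controls. It was the only gene that passed over all 15421 genes tested, at a Benjamini-Hochberg adjusted p of 0.000125 in the quasi-likelihood test of edgeR, which gives all p-values below unless another tool is named. In a principal component analysis, NRG1 library 1 lay at -65.4 on the second component, against -7.46 to 23.2 for the others, and control library 3 lay at 79.3 on the first, against -41.3 to 4.16. Where leaving out these 2 libraries changed the call or the direction of a named gene, both values are given. A change in size alone is given for part of the results. Of 8 airway basal markers, 7 had counts in all 6 libraries, TP63 and KRT5 among them, while SOX2 had at most 4 expected counts in any library. Of the 5 leukocyte markers, CD3E and MS4A1 were at 0 in all 6 libraries, while CD68 was at 24.7, 5.61 and 3.69 CPM in NRG1 1 to 3, against 23.9, 18.9 and 32.0 CPM in control 1 to 3, and CD14 at 1.70 to 6.82 CPM over all libraries. The CD68 log2 fold change was -1.15 (adjusted p 0.515 in edgeR). Without control 3 and NRG1 1 it was called at -2.19 (adjusted p 0.0051 in edgeR). The leukocyte sum was 9.34 to 27.9 CPM in NRG1 and 22.1 to 33.9 CPM in control. Of the endothelial markers CDH5 was at 0 in all 6 libraries, KDR and VWF were above 0 in all, and the sum was 0.618 to 2.28 CPM in NRG1 and 0.645 to 0.807 CPM in control. The 6 airway secretory markers summed to 56.3 CPM in NRG1 3 and 26.5 CPM in control 3, against at most 0.404 CPM in the other 4 libraries. The sum of 5 airway ciliated markers was 5.81, 18.2 and 29.2 CPM in NRG1 1 to 3. In control 1 to 3 it was 13.1, 10.9 and 14.3 CPM, so the groups overlapped. The 3 tested ciliated markers had a median log2 fold change of 0.85, and of 1.61 without control 3 and NRG1 1. The part of these other cell markers in the results below was not tested.

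WNT5A was the ligand whose level separated the groups most. The promoters of WNT5A and DKK1 are shown because WNT5A had the largest fold change of the 8 tested genes and DKK1 is both an antagonist and a known target of canonical signalling. Each is the 250 bases before a RefSeq start site, read 5′ to 3′ on the gene's strand in the GRCh38.p14 build. In the GRCh38.p14 windows WNT5A has start sites at a distal and a proximal position, chr3:55487307-55487556 and chr3:55481399-55481648, both on the minus strand, and the DKK1 window is chr10:52314031-52314280 on the plus strand. Capitals mark a TCF/LEF core (TCAAAG), an AP-1 element (TGANTCA) or a TATA box (TATAAA), each searched on both strands.
WNT5A distal: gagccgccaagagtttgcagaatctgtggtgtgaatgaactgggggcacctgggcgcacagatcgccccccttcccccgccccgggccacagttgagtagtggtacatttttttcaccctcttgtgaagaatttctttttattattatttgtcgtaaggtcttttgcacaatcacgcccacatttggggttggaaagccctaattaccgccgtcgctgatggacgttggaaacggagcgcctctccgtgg
WNT5A proximal: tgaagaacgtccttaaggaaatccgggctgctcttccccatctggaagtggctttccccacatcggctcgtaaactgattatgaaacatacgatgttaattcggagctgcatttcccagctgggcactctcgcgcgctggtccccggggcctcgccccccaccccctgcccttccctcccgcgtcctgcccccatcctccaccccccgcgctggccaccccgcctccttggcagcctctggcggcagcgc
DKK1: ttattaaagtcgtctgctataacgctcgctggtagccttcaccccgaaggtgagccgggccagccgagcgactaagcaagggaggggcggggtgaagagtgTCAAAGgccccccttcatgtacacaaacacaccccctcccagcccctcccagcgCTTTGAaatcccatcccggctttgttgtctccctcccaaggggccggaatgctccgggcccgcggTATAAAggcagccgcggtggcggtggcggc

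The DKK1 window held TCF/LEF core letters at 2 places, which begin 149 and 95 bases before the start site, and a TATA box that begins 30 bases before it. Neither WNT5A window held any of the 3 motifs. Windows were found for 7 of the 10 genes, 9 windows in all, and DKK1 was the one gene among them with a TCF/LEF core. Of all 35116 RefSeq windows of the same length, 11.2% held that core, 6.57% the AP-1 element and 10.7% the TATA box. WNT7B, DKK3 and AXIN2 had no window. A match says only that these letters are present.

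WNT5A (ENSG00000114251, chromosome 3) was lower in every NRG1 library than in every control. Its level was 2.72, 1.03 and 0.869 CPM in NRG1 libraries 1 to 3, against 6.45, 6.06 and 8.49 CPM in control libraries 1 to 3. These levels rested on 22, 11 and 8 expected counts in the NRG1 libraries and on 80, 60 and 110 in the controls. The 2 lowest values were those of NRG1 2 and NRG1 3, and the groups did not overlap. The means were 1.54 ± 1.03 CPM in NRG1 and 7.0 ± 1.31 CPM in control (SD, n = 3 each). The log2 fold change was -2.20 (SE 0.48), with an unadjusted p of 0.00179 and a Benjamini-Hochberg adjusted p of 0.283, so WNT5A did not pass the quasi-likelihood test of edgeR. DESeq2 called it at an adjusted p of 0.0048. Without control 3 and NRG1 1 the log2 fold change was -2.70 and the adjusted p in edgeR 0.0061, and without NRG1 1 alone it was -2.87 with an adjusted p of 0.0517.

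By edgeR's adjusted p, 0 of the 8 tested members passed, against 0.00648% of all tested genes. At an unadjusted p under 0.05 there were WNT5A and DKK3, both lower, against 6.51% of all tested genes lower, 4.64% higher and 11.1% in both directions. DESeq2 called WNT5A alone among the members, against 1.36% of all tested genes. In 3 members, WNT5A, WNT5B and DKK3, all NRG1 libraries lay below all controls, against 10.2% of all tested genes. In 0 members did all lie above, against 9.36%, so the groups did not overlap in 3 of 8 members, against 19.6% of all tested genes. The median log2 fold change was -0.56 over the 8 tested members and 0.00 over all tested genes. In bulk RNA, fewer cells of a type and less RNA per cell cannot be told apart.

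**Figure D1:**
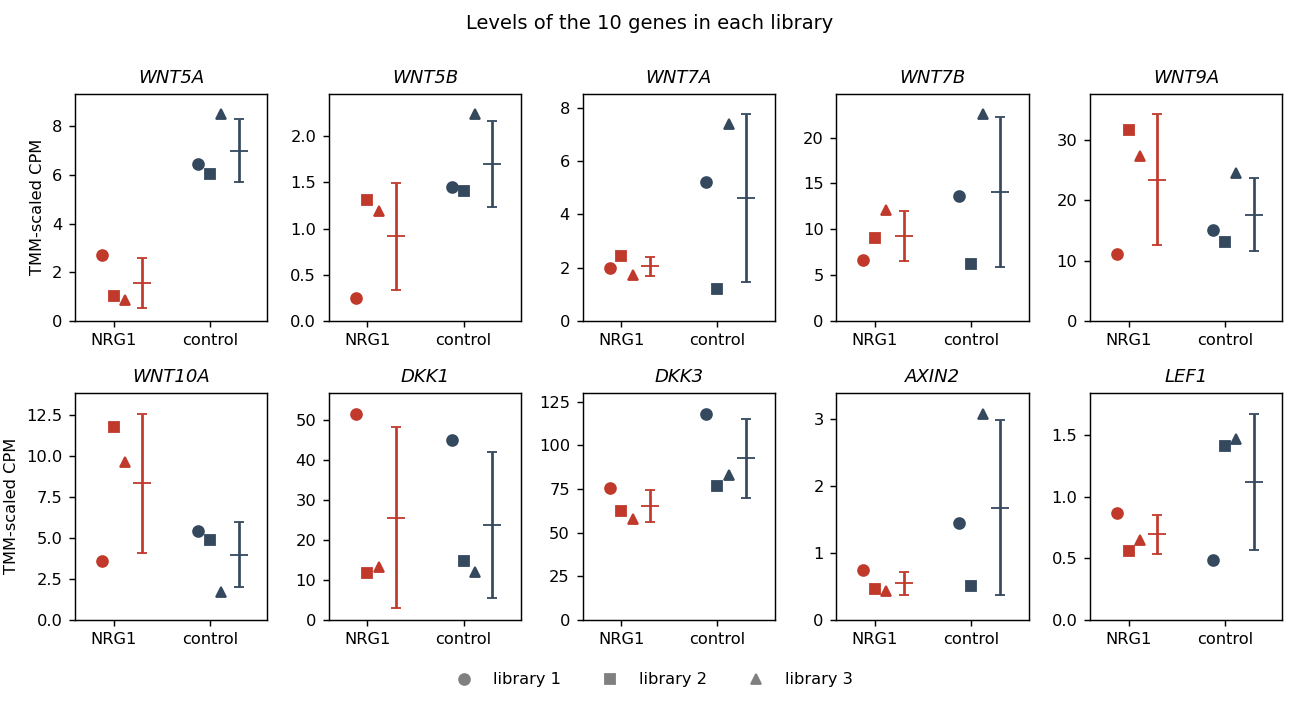
TMM-scaled CPM of the 10 genes in the 3 NRG1 and 3 control libraries, 1 panel per gene with its own linear axis. Points are libraries and bars the mean ± SD (n = 3 each). WNT5A was at 0.869 to 2.72 CPM in NRG1 and 6.06 to 8.49 CPM in control, and DKK1 was high in library 1 of both groups.

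Fibroblast markers and basal markers, as sums, were also lower in every NRG1 library than in every control. The summed level of 8 fibroblast markers was 65.1 to 68.4 CPM in NRG1 and 72.3 to 133 CPM in control, with PDPN the largest part of it in all 6 libraries, at 37.0 to 45.2 CPM in NRG1 and 29.3 to 65.3 CPM in control, where the groups overlapped. DCN, the proteoglycan decorin, was at 2.80 to 7.29 CPM in NRG1 and 12.5 to 16.4 CPM in control, without overlap (log2 fold change -1.56, adjusted p 0.327 in edgeR and 0.0115 in DESeq2). Without control 3 and NRG1 1, DCN was called at -2.05 (adjusted p 0.0074 in edgeR). COL1A1, a collagen chain, was at 11.1 to 23.5 CPM in NRG1 and 26.4 to 48.2 CPM in control. PDGFRB, LUM, COL1A2 and COL3A1 had at most 15 expected counts in any library. PDGFRA was at 0.467 to 1.85 CPM in NRG1 and 0.540 to 1.31 CPM in control, with overlap and a higher mean in NRG1. The 8 basal markers summed to 6038 to 7754 CPM in NRG1 and to 9099 to 13030 CPM in control. Keratins made up most of that sum: KRT17 and KRT14 were lower in every NRG1 library, at log2 fold changes of -0.995 and -2.45 (adjusted p 2.05e-06 and 0.000788 in DESeq2, 0.128 and 0.317 in edgeR), and KRT5, whose groups overlapped, had -0.51. TP63, ITGA6 and EGFR had log2 fold changes of 0.09, 0.00 and -0.09, and ITGB4, whose groups overlapped, had -0.46 (adjusted p 0.446 in edgeR). Without control 3 and NRG1 1, edgeR called 4 of the 7 tested basal markers lower, against 4.71% of all tested genes. KRT17, KRT14, KRT5 and ITGB4 were then at -0.95, -3.40, -0.83 and -0.67 (adjusted p 0.0047, 0.0041, 0.0462 and 0.0473 in edgeR). TP63, ITGA6 and EGFR, not called, were at -0.11, -0.04 and -0.28. The part of either list in the WNT5A result was not tested.

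The genes whose level followed that of WNT5A most closely over the 6 libraries were CORO2A, ZNF275, SMOC1, SUSD2 and C17orf49. Pearson's r of log2(CPM + 1) was 0.9981 for CORO2A and 0.9931 for C17orf49, and 122 of 12127 genes compared had an r above 0.95. With 6 libraries of 2 groups such values describe these libraries only. SMOC1, a secreted matrix-associated protein, averaged 28.8 CPM in NRG1 and 59.4 CPM in control.

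WNT5B (ENSG00000111186, chromosome 12), the closest relative of WNT5A, was at a low level throughout. It was at 0.247, 1.31 and 1.19 CPM in NRG1 1 to 3, against 1.45, 1.41 and 2.24 CPM in control 1 to 3. The groups did not overlap, but NRG1 2 and NRG1 3 lay close to control 1 and control 2, and NRG1 1 held only 2 expected counts. The log2 fold change was -0.86 (SE 0.58, adjusted p 0.58 in edgeR), and without control 3 and NRG1 1 it was -0.19.

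WNT9A and WNT10A, both described as canonical ligands, were high in NRG1 2 and NRG1 3 and not in NRG1 1. WNT9A (ENSG00000143816, chromosome 1) was at 11.1, 31.8 and 27.4 CPM in NRG1 1 to 3, against 15.2, 13.1 and 24.6 CPM in control 1 to 3. The NRG1 1 value lay below all controls and the other 2 lay above all of them. Its log2 fold change was 0.41 (SE 0.41, adjusted p 0.706 in edgeR). WNT10A (ENSG00000135925, chromosome 2) was at 3.58, 11.8 and 9.66 CPM in NRG1 1 to 3, against 5.4, 4.84 and 1.70 CPM in control 1 to 3. NRG1 1 lay inside the control range, and the other NRG1 libraries lay above it. Its log2 fold change was 1.07 (SE 0.55, adjusted p 0.483 in edgeR).

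Without control 3 and NRG1 1, edgeR called 3 members, with WNT9A and WNT10A higher and WNT5A lower in NRG1. The log2 fold changes were 1.06 for both WNT9A (SE 0.16, adjusted p 0.0112 in edgeR) and WNT10A (SE 0.23, adjusted p 0.0309 in edgeR). That comparison of 2 against 2 libraries called 4.91% of all tested genes as higher and 4.71% as lower. Leaving libraries out because they stand apart narrows the spread within groups, so its p-values are too small by an unknown amount.

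WNT7A and WNT7B, a pair of closely related ligands of epithelial cells, had their highest values in control 3. WNT7A (ENSG00000154764, chromosome 3) was at 1.98, 2.43 and 1.74 CPM in NRG1 1 to 3, against 5.24, 1.21 and 7.41 CPM in control 1 to 3. Control 2 lay below every NRG1 library, and the log2 fold change was -1.18 (SE 0.60, adjusted p 0.481 in edgeR). WNT7B (ENSG00000188064, chromosome 22) was at 6.68, 9.06 and 12.0 CPM in NRG1 1 to 3, against 13.6, 6.16 and 22.5 CPM in control 1 to 3. Here too control 2 was the lowest of all 6 libraries. The WNT7B log2 fold change was -0.61 (SE 0.46, adjusted p 0.624 in edgeR), and it was -0.10 without control 3 and 0.07 without both control 3 and NRG1 1. WNT7A had a log2 fold change of -0.67 without control 3, and of -0.65 without both libraries.

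**Figure D2:**
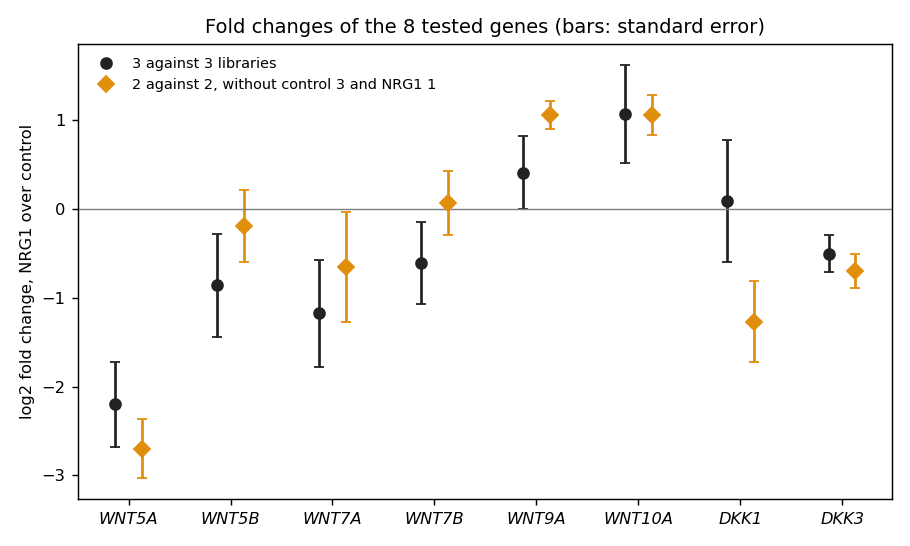
Log2 fold change, NRG1 over control, of the 8 tested genes in edgeR, with bars of 1 standard error, for 3 against 3 libraries and for 2 against 2 without control 3 and NRG1 1. WNT5A was at -2.20 and -2.70 in the 2 fits, WNT10A at 1.07 and 1.06, and DKK1 turned from 0.09 to -1.27.

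WNT5A was set against each other ligand within a library, as a ratio of expected counts, which does not depend on how libraries are scaled. For each count of WNT9A there were 0.244, 0.0324 and 0.0317 counts of WNT5A in NRG1 1 to 3, against 0.426, 0.462 and 0.346 in control 1 to 3. For each count of WNT10A there were 0.759, 0.0873 and 0.0899 of WNT5A in NRG1 1 to 3, against 1.20, 1.25 and 5.0 in control 1 to 3. Both ratios were lower in every NRG1 library than in every control. The mean log2 ratio differed by -2.69 for WNT9A and by -3.43 for WNT10A, each with p = 0.1 in a two-sided exact permutation test, the smallest that 3 against 3 libraries allow.

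Against WNT7B the groups overlapped. The ratio of WNT5A to WNT7B was 0.407, 0.113 and 0.0721 in NRG1 1 to 3, against 0.474, 0.976 and 0.377 in control 1 to 3, so NRG1 1 lay inside the control range. The difference in mean log2 ratio was -1.90 (exact permutation p = 0.2). It was -1.53 for WNT7A (exact permutation p = 0.3) and -1.17 for WNT5B (exact permutation p = 0.4). The WNT5A to WNT5B ratio was 11 in NRG1 1, which held 2 counts of WNT5B, and 0.786 and 0.727 in NRG1 2 and NRG1 3, against 4.44, 4.29 and 3.79 in control 1 to 3. Adjusted over the 5 ratios, the exact permutation p-values ran from 0.25 to 0.4.

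Levels of different genes were compared per kb of annotated exon. WNT9A was the highest of the 6 ligands in both groups, with 5.90 ± 2.74 CPM per kb in NRG1 and 4.43 ± 1.54 CPM per kb in control (SD, n = 3 each). In the NRG1 libraries WNT10A (2.44 ± 1.25 CPM per kb), WNT7B (1.83 ± 0.533), WNT7A (0.447 ± 0.0768), WNT5B (0.213 ± 0.135) and WNT5A (0.208 ± 0.139) followed. Among these neighbours, WNT7B and WNT7A did not overlap, nor did WNT7A and WNT5B, while the other neighbours overlapped. In the control libraries the order was WNT7B (2.79 ± 1.62 CPM per kb), WNT10A (1.17 ± 0.585), WNT7A (1.01 ± 0.687), WNT5A (0.946 ± 0.177) and WNT5B (0.395 ± 0.108). There only WNT5A and WNT5B, as neighbours, did not overlap.

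Over all 19 human Wnt ligand genes, the summed level was 9.20, 21.0 and 18.5 CPM per kb in NRG1 1 to 3, against 13.9, 12.1 and 19.8 CPM per kb in control 1 to 3. WNT5A made up 4.0%, 0.663% and 0.634% of it in NRG1 1 to 3, against 6.27%, 6.77% and 5.81% in control 1 to 3. The share of WNT5A was lower in every NRG1 library than in every control. WNT7A, WNT7B, WNT9A and WNT10A together made up 61.0%, 65.7% and 67.5% in NRG1 1 to 3, against 66.5%, 51.3% and 64.6% in control 1 to 3, and these ranges overlapped.

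**Figure D3:**
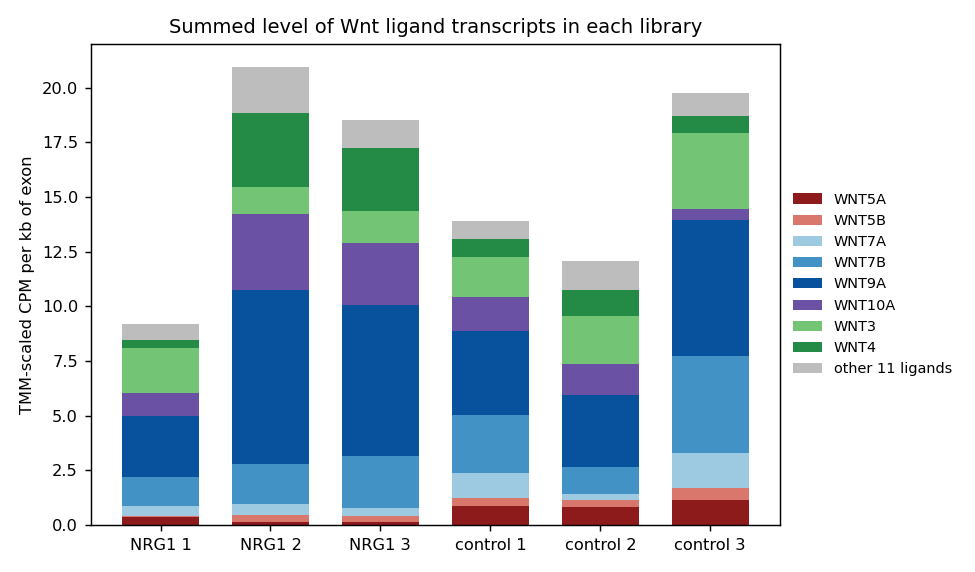
Stacked TMM-scaled CPM per kb of exon of the Wnt ligand genes in each library, from 0, with 8 ligands named and the other 11 summed. WNT5A took 0.634% to 4.0% of the total in NRG1 libraries and 5.81% to 6.77% in controls, and NRG1 1 had the lowest total, 9.20 CPM per kb.

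Of the 19 ligand genes, 9 passed the filter on low counts. The 3 tested ligands that are not among the 10 genes were WNT2B, WNT3 and WNT4. WNT4 was at 1.73, 15.3 and 12.9 CPM in NRG1 1 to 3, against 3.63, 5.35 and 3.47 CPM in control 1 to 3. As with WNT10A, NRG1 2 and NRG1 3 lay above all controls and NRG1 1 did not. Its log2 fold change was 1.28 (SE 0.66, adjusted p 0.487 in edgeR), and 1.67 without control 3 and NRG1 1, where it was called (adjusted p 0.0115 in edgeR). WNT1 and WNT8A had no count in any library, and the other 8 untested ligands had at most 12 expected counts in a library.

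The antagonists DKK3 and DKK1 had the highest mean levels per kb of exon among the 10 genes. DKK3 averaged 12.9 ± 1.83 CPM per kb in NRG1 and 18.3 ± 4.44 CPM per kb in control, and DKK1 11.6 ± 10.2 CPM per kb in NRG1 and 10.8 ± 8.28 CPM per kb in control (SD, n = 3 each). In NRG1 2, NRG1 3 and control 3, however, WNT9A exceeded DKK1 on this scale. DKK3 (ENSG00000050165, chromosome 11), a secreted Dickkopf protein that is described as a weak or divergent Wnt regulator, was at 75.7, 62.6 and 57.8 CPM in NRG1 1 to 3, against 118, 76.6 and 82.7 CPM in control 1 to 3. The groups did not overlap, although NRG1 1 and control 2 lay about level. The log2 fold change was -0.50 (SE 0.21), with an unadjusted p of 0.0449 and an adjusted p of 0.444 in edgeR. DESeq2 gave an adjusted p of 0.392, and without control 1 the log2 fold change was -0.29 with an adjusted p of 0.551 in edgeR.

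DKK1 (ENSG00000107984, chromosome 10) varied within both groups far more than between them. It was at 51.5, 11.8 and 13.1 CPM in NRG1 1 to 3, against 44.8, 14.6 and 11.9 CPM in control 1 to 3. NRG1 1 and control 1 were high and the other 4 libraries were low, so the groups overlapped. The means were 25.5 ± 22.6 CPM in NRG1 and 23.8 ± 18.3 CPM in control (SD, n = 3 each), and the log2 fold change was 0.09 (SE 0.68, adjusted p 0.967 in edgeR). Without NRG1 1 the log2 fold change was -0.93, and without control 1 it was 0.93, neither past the threshold (adjusted p 0.442 and 0.578 in edgeR).

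The genes whose level followed that of DKK1 most closely over the 6 libraries were IRS1, PRDX3, EPB41L2, TMEM97 and TCF4. Pearson's r of log2(CPM + 1) was 0.9966 for IRS1, an adaptor of insulin receptor signalling, and 0.986 for TCF4, and 62 of 12127 genes compared had an r above 0.95. IRS1 averaged 57.6 CPM in NRG1 and 54.0 CPM in control. TCF4 here is the gene of the basic helix-loop-helix factor and not TCF7L2, the Wnt effector that is also called TCF4.

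AXIN2 and LEF1, the canonical read-outs, were near the limit of detection. AXIN2 (ENSG00000168646, chromosome 17), a scaffold that is induced by canonical signalling and dampens it, had 6.46, 5 and 4.32 expected counts in NRG1 1 to 3, against 18, 5 and 40.4 in control 1 to 3. In CPM it was at 0.742, 0.467 and 0.434 in NRG1 1 to 3, against 1.45, 0.505 and 3.09 in control 1 to 3. Control 2 lay inside the NRG1 range, and control 3 was the highest library. Tested with no filter on low counts, its log2 fold change was -1.65 (SE 0.68), with an unadjusted p of 0.0217 and an adjusted p of 0.366 in edgeR over 29827 genes.

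LEF1 (ENSG00000138795, chromosome 4), a DNA-binding partner of beta-catenin, had 7, 6 and 6 expected counts in NRG1 1 to 3, against 6, 13.7 and 19 in control 1 to 3. In CPM it was at 0.865, 0.561 and 0.651 in NRG1 1 to 3, against 0.484, 1.41 and 1.47 in control 1 to 3. Control 1 was the lowest of all 6 libraries, so the groups overlapped. With no filter its log2 fold change was -0.71 (SE 0.67, adjusted p 0.727 in edgeR). A change in either read-out smaller than its spread between libraries was not detectable.

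The other genes of the pathway were described through lists of its parts, and 0 genes of any list passed edgeR over all genes, against 0.00648% of all tested genes. DESeq2 called WNT5A alone of them. Of 19 canonical target genes, 11 were tested, the NRG1 libraries all lay below the controls in 2 and above them in 0, against 10.2% and 9.36% of all tested genes. None, 0 of 11, had an unadjusted p under 0.05, against 11.1%, and the median log2 fold change was -0.20. Of the 11, 6 were below 0 and 5 above, against 7715 and 7706 of all tested genes. ASCL2, CCND1, TCF7 and APCDD1, named after their values were seen, and DKK1 were those above 0. They had log2 fold changes of 1.13 (SE 0.97), 0.22, 0.07, 0.06 and 0.09. Without control 3 and NRG1 1, CCND1 turned to -0.12 and DKK1 to -1.27. ASCL2, TCF7 and APCDD1 were then at 1.17, 0.08 and 0.86. ASCL2 was at no more than 2.90 CPM in any library. With those 2 libraries left out, 8 of the 11 were below 0 and 3 above, against 7796 and 7625 of all tested genes. The median was then -0.28. At an unadjusted p under 0.05 in edgeR there were then 3 lower and 1 higher, against 2103 and 2079 of 15421 tested genes. ZNRF3, a ubiquitin ligase that removes Frizzled receptors, was at 26.7 ± 1.28 CPM in NRG1 and 35.2 ± 5.82 CPM in control (log2 fold change -0.40, SE 0.19). The RNF43 groups, of a related ligase, did not overlap either, but the highest NRG1 and the lowest control value were both 21.8 CPM after rounding, with means of 21.4 ± 0.506 CPM in NRG1 and 24.6 ± 4.68 CPM in control. For NKD1, a feedback inhibitor, the log2 fold change was -1.1 (SE 0.56), and for BAMBI, a decoy receptor of the TGF-beta family, it was -1.01 (SE 0.59). Both had their highest value in control 3, 4.01 CPM for NKD1 and 12.3 CPM for BAMBI, and without control 3 and NRG1 1 the log2 fold changes were -0.28 and -0.52. MYC, a transcription factor that drives growth, named after its values were seen, was at 345, 135 and 132 CPM in NRG1 1 to 3, against 271, 196 and 252 CPM in control 1 to 3. Over all 6 libraries the log2 fold change was -0.23 (adjusted p 0.822 in edgeR), and without those 2 libraries it was called lower at -0.80 (adjusted p 0.0255 in edgeR). CD44, a cell-surface receptor of hyaluronan, had a log2 fold change of -0.26 (SE 0.18).

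Among receptors and co-receptors, 17 of 18 were tested, the NRG1 libraries all lay below the controls in 6 and above them in 2, against 10.2% and 9.36% of all tested genes, with a median log2 fold change of -0.20. At an unadjusted p under 0.05 there were 4 lower and 1 higher, against 6.51% and 4.64%. ADGRA2, which with RECK serves WNT7A and WNT7B signalling in mouse brain endothelium, was at 0.989, 1.12 and 1.19 CPM in NRG1 1 to 3, against 2.82, 4.24 and 3.32 CPM in control 1 to 3. Its log2 fold change was -1.63 (SE 0.38, adjusted p 0.313 in edgeR), and the groups did not overlap. Without control 3 and NRG1 1 it was -1.59 and called (adjusted p 0.0483 in edgeR). The Frizzled receptor genes FZD10 and FZD7 were at log2 fold changes of -1.53 (SE 0.53) and -1.12 (SE 0.40), with adjusted p-values of 0.382 and 0.399 in edgeR, and at -0.91 and -0.90 without those 2 libraries. ROR1 and ROR2, receptors of WNT5A, had log2 fold changes of -0.79 and -0.59, with unadjusted p-values of 0.0403 and 0.0993 in edgeR. ROR1, ROR2, FZD8 (lower) and FZD3 (higher), whose groups did not overlap, are named here after their values were seen. RYK, a Wnt-binding pseudokinase, was at 94.8 ± 7.97 CPM in NRG1 and 71.5 ± 8.14 CPM in control (log2 fold change 0.41, SE 0.16, adjusted p 0.417 in edgeR).

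Of the 2 genes needed to release Wnt proteins, PORCN, the acyltransferase that lipidates them, was at 19.2, 18.4 and 16.5 CPM in NRG1 1 to 3, against 26.5, 24.3 and 31.6 CPM in control 1 to 3. The groups did not overlap, and the log2 fold change was -0.61 (SE 0.20, adjusted p 0.381 in edgeR). WLS, the carrier that brings Wnt proteins to the cell surface, had a log2 fold change of -0.21 (SE 0.16).

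Of 20 antagonists, 7 were tested, DKK3 alone was lower and TRABD2A alone was higher in all NRG1 libraries, against 10.2% and 9.36% of all tested genes, and the median log2 fold change was -0.09. TRABD2A, a membrane protease that cleaves Wnt proteins, was at 20.0, 15.9 and 19.0 CPM in NRG1 1 to 3, against 11.1, 10.3 and 4.25 CPM in control 1 to 3. Its log2 fold change was 1.1 (SE 0.37, adjusted p 0.381 in edgeR). For KREMEN1 and KREMEN2, receptors of DKK1, the log2 fold change was -0.09 (SE 0.21) and -0.18 (SE 0.37). SFRP1, named after its values were seen, had the highest mean CPM of the 7. It was at 227 to 325 CPM in NRG1 and 210 to 416 CPM in control. Its log2 fold change was -0.11 (SE 0.29), and -0.45 without control 3 and NRG1 1. Of 9 R-spondin pathway genes 5 were tested, and 0 had an unadjusted p under 0.05, against 11.1% of all tested genes. In 2 of them, ZNRF3 and RNF43, all NRG1 libraries lay below all controls, against 10.2% of all tested genes. In 0 did all lie above, against 9.36%. The median log2 fold change of these 5 was -0.20. RSPO1, a secreted enhancer of Wnt signals, was at 81.0 ± 18.9 CPM in NRG1 and 55.7 ± 27.1 CPM in control, a log2 fold change of 0.54 that was 0.00 without control 3 and NRG1 1. RSPO4, a related enhancer, was at 2.80 ± 1.15 CPM in NRG1 and 4.2 ± 2.52 CPM in control.

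Inside the cell, 16 of 17 destruction complex and Dishevelled genes were tested. Of these, 0 had an unadjusted p under 0.05, against 11.1% of all tested genes. Their median log2 fold change was -0.17, with 11 below 0 and 5 above. The NRG1 libraries all lay below the controls in 2 and above them in 1, against 10.2% and 9.36% of all tested genes. The 1 above was CSNK1A1, named after its values were seen (log2 fold change 0.10, SE 0.13). AXIN1, the scaffold of the complex, had a log2 fold change of -0.45 (SE 0.23), the kinases GSK3A and CSNK1E had -0.21 (SE 0.15) and -0.20 (SE 0.14), and DVL3 had -0.23 (SE 0.18). Of 13 genes of TCF/LEF factors and their partners, 12 were tested, with a median of 0.14. TLE4, a co-repressor that binds TCF factors, was at 4.08, 4.86 and 4.23 CPM in NRG1 1 to 3, against 7.25, 8.38 and 9.34 CPM in control 1 to 3. It was the 1 gene of that list whose groups did not overlap, against 19.6% of all tested genes. Its log2 fold change was -0.92 (SE 0.28, adjusted p 0.372 in edgeR). For PYGO1, BCL9L and CTNNBIP1 the log2 fold change was 0.48 (SE 0.31), 0.24 (SE 0.16) and 0.28 (SE 0.19).

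The planar polarity branch, which orients cells in the plane of a sheet and which WNT5A can feed, had 12 genes tested of 12. Their median log2 fold change was -0.15, and 0 had an unadjusted p under 0.05, against 11.1% of all tested genes. In 4 of them all NRG1 libraries lay below all controls and in 0 above, against 10.2% and 9.36% of all tested genes. PRICKLE2, PRICKLE3, DAAM2 and INVS, the last named after its values were seen, were these 4, the first 3 at log2 fold changes of -0.57 (SE 0.26), -0.35 (SE 0.20) and -0.74 (SE 0.43). VANGL2, a membrane protein of the polarity complex, was at 47.7, 95.3 and 92.7 CPM in NRG1 1 to 3, against 60.8, 59.1 and 41.7 CPM in control 1 to 3. NRG1 1 lay inside the control range, as for WNT10A. For VANGL2 the log2 fold change was 0.55 (adjusted p 0.493 in edgeR), and 0.65 without control 3 and NRG1 1, where it was called (adjusted p 0.013 in edgeR). LRP5, a canonical co-receptor, and TLE3, a co-repressor, both named after their values were seen, were also called higher in that comparison, at log2 fold changes of 0.50 and 0.68 (adjusted p 0.0348 and 0.0237 in edgeR). With those libraries left out, the median was 0.07 for the tested ligands, 0.03 for destruction complex and Dishevelled genes and 0.04 for the planar polarity branch, each above 0.

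**Figure D4:**
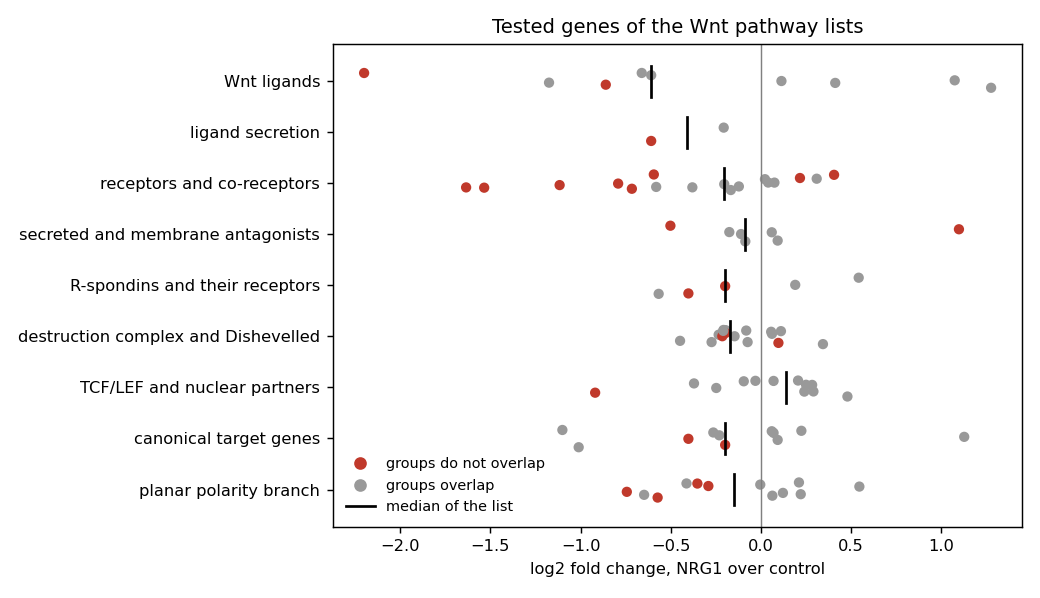
Log2 fold change, NRG1 over control, of every tested gene of 9 Wnt pathway lists, with 1 point per gene, red where the groups do not overlap, and a line at each list's median. The medians lie between -0.61 for ligands and 0.14 for TCF/LEF factors and partners, and WNT5A is the leftmost point at -2.20.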

How the data were processed

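The submitters' processing notes list hg19, RSEM 1.3.0 and STAR 2.5.3a, and also MultiQC 0.9 and FastQC 0.11.3; the sources used here name no annotation. The deposited expected counts were not normalized. RSEM shares reads among genes they fit, so counts of close relatives can be uncertain. The expected counts of WNT7A were whole numbers in all 6 libraries, and those of WNT7B were fractional in the 3 controls. The deposited log2 values, of 14759 genes, matched TMM-scaled log2 CPM (prior count 0.25) to within 5.15e-14. The design had left their scale open, and they served only in limma-trend.

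Expected counts were rounded and tested with edgeR 4.0.16 (R 4.3.3; TMM, filterByExpr, quasi-likelihood test, no covariate), with Benjamini-Hochberg adjustment over 15421 genes and a threshold of 0.05. Standard errors come from the F statistic. Alternatives used DESeq2 1.42.0 and limma 3.58.1. The tests were tried on simulated data, in which DESeq2 made a larger share of false calls than edgeR. Those data were drawn with the spread that edgeR had estimated, so they cannot rank the tools on the real libraries. A call by DESeq2 alone stays uncertain. In the simulated data edgeR also recovered fewer of the set changes than DESeq2, so genes that edgeR did not call can still differ. A mean of 1 CPM rests on about 10 counts, so low genes have wide counting error.

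The 10 genes, the lists and the tests were chosen with earlier results of these data known. Named genes were NRG1, the 10 genes, up to 4 genes per list with the smallest p and a mean of at least 1 CPM, and the 5 genes most like WNT5A and DKK1 with a mean of at least 5 CPM. Symbols matched 51959 of 57736 identifiers, and exon lengths and chromosomes came from GENCODE 29 (GRCh38).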

Additional observations from a re-analysis of the deposited data

How the results depend on the processing

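Over all genes, edgeR called 1 gene, and the count was 209 with DESeq2, 218 with no low-count filter, 2 in limma-trend on log2(CPM + 1), 2 in limma-voom without rounding and 1484 without control 3 and NRG1 1. Leaving out 1 library gave 1 to 49, the highest without NRG1 1. Members called were 0, against 1 with DESeq2 and 1 with no filter (WNT5A in each), 3 without control 3 and NRG1 1, and 0 to 0 on leaving out 1 library. WNT5A had a log2 fold change below 0 in all settings: -2.20 with DESeq2, -2.22 with no filter and -2.70 without both libraries, where it was called, and -2.87 to -1.92 on leaving out 1 library. The difference in log2 ratio of WNT5A to WNT7B was -2.63 to -1.38 on leaving out 1 library. Of the 8 tested members, DKK1 and WNT7B alone turned in direction in any of these settings. DKK1 went to -0.054 in limma-voom and -1.27 without both libraries, and ran from -0.93 to 0.93 on leaving out 1 library, below 0 without NRG1 1 (-0.93), control 2 (-0.16) or control 3 (-0.25). WNT7B went to 0.075 without both libraries, and ran from -0.96 to -0.10 on leaving out 1 library. The cause was not tested.

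Over all genes, the correlation of same-numbered libraries' deviations from the group means was 0.03, 0.17 and -0.09 for numbers 1 to 3, and not every library correlated best with its own number, so the numbers were not taken to pair libraries. Some genes did follow the number: DKK1, CCND1 and SFRP1 were highest in library 1 of both groups. The sum of the airway secretory markers was highest in library 3 of both. Of 12127 genes compared, 62 had an r above 0.95 with DKK1. With the replicate block 2 genes were called over all genes and 0 members, and WNT5A had a log2 fold change of -2.30 (adjusted p 0.428 in edgeR). DKK1 had 0.02 with the block (SE 0.25), against 0.09 without it (SE 0.68). AXIN2 and LEF1 had at most 40.4 and 19 expected counts, so depth limits their precision, and the controls of AXIN2 ranged from 0.505 to 3.09 CPM.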
